A study of Mus musculus with 10 samples.

Results

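Semaphorins, plexins and neuropilins were followed with age in the mouse dentate gyrus, a part of the hippocampus that goes on making granule neurons in young adults. Genes were taken by annotated symbol: semaphorin classes 3 to 7, plexins A to D, and both neuropilins. All 31 genes found by this rule were measured, of 19752 genes in the table; 20 encode semaphorins, 9 plexins and 2 neuropilins. Each was read from a probe set annotated to that gene alone. Sema6b had another such probe set, whose values were identical on 10 of 10 arrays and which therefore adds no second measurement.

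The arrays came from dentate gyri of mice of the strain labelled C56BL/6J at ages of 4, 6, 8, 10 and 12 weeks, with 2 arrays per age and 10 in all. No animal was treated, and age is the variable compared. Both gyri were micro-dissected and total RNA was hybridised to Affymetrix whole-transcript arrays. Whether both arrays of an age stand for separate animals or for pools is not in the labels. The p-values below therefore reflect array-to-array spread only, some of which may be technical.

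Array medians lay between 8.27 and 8.31 log2 units, and with 2 arrays per age every value below has limited precision. The array 6 weeks replicate 1 stood apart with 13.77 for Ttr, a choroid plexus transcript, against at most 10.15 on the other arrays, and 8 weeks replicate 1 had the narrowest spread of values. The label gives the sex as female, whereas Xist was at 5.41 to 6.02 on all 10 arrays and the Y-linked gene Eif2s3y at 8.59 to 9.16, so the label and these transcripts disagree on every array. With both arrays that stood apart left out, the same 4 members named below passed the test. The tissue label was checked against 6 granule cell markers. Prox1, which keeps granule cells in their fate, averaged 12.29 and Calb1, calbindin, 12.63 over the arrays. The mean of the granule list stayed between 11.55 and 11.71 on all arrays.

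Semaphorins are guidance signals, either secreted (class 3) or held in the membrane (classes 4 to 7), that steer axons, dendrites and migrating cells. They act through plexins, receptors whose intracellular part regulates small GTPases. Most class 3 semaphorins need a neuropilin as the binding partner of the plexin, while several membrane-bound ones bind a plexin directly. In the mouse hippocampus, members of the family are known for shaping the mossy fibres, the axons of granule cells, and for controlling spines and synapses.

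The trend over age was the slope on age in weeks across all 10 arrays in limma, given as the log2 change over 8 weeks with its standard error. p-values were adjusted by the Benjamini-Hochberg method over 19752 genes, with a threshold of 0.05. Of the 31 members, 4 fell with age and 0 rose: the ligand genes Sema3c and Sema6a and the receptor genes Plxna3 and Plxnb3. The background was 0.673% of all genes falling and 0.147% rising (0.82% in either direction). The members' 4 of 31, or 12.9%, stands above it, in a list that was chosen with earlier results of these data known. That background includes dim genes, since 5359 of 19752 had a mean under the measure of dim signal given below, against 0 members. With the dimmest 30% of genes left out, 5 members and 337 of 13826 genes were called. The count of 4 depended on single arrays, as did the count over all genes. Without 4 weeks replicate 1 or without 4 weeks replicate 2 it was 1, Sema3c. Without 12 weeks replicate 1 it was 2, Sema3c and Plxnb3. Over all genes 162 were called with every array, and 35, 54 and 91 in these settings in turn. At an unadjusted p under 0.05 there were 13 members, all with negative changes, where 7.28% of all genes had a negative and 4.41% a positive change at that level. Negative changes of any size were fitted for 23 of 31 members and for 48.8% of all genes. The median change was −0.16 over the members and 0.00 over all genes.

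**Figure D1:**
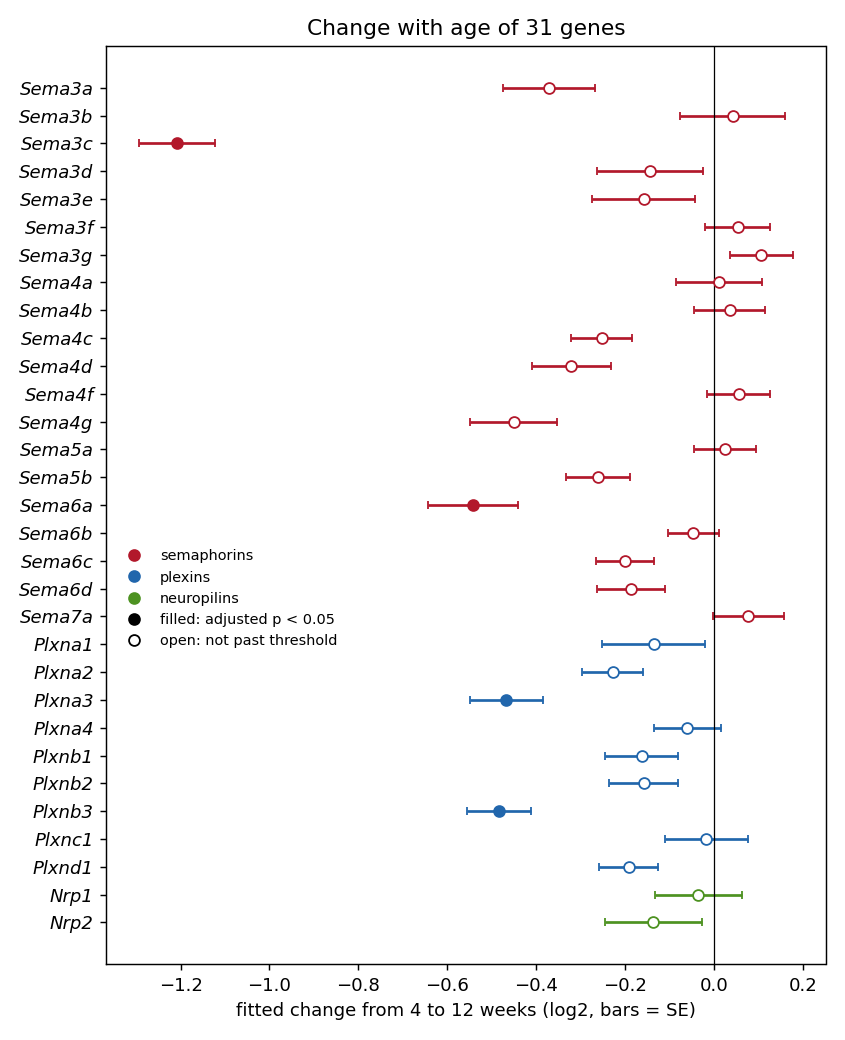
Fitted log2 change from 4 to 12 weeks (x axis) of the 31 genes (rows), semaphorins in red, plexins in blue and neuropilins in green; bars are standard errors from limma and filled points passed at an adjusted p under 0.05. Sema3c lies far left at −1.21, and Sema6a, Plxnb3 and Plxna3 lie between −0.54 and −0.47.

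Sema3c encodes a secreted semaphorin that binds neuropilins together with plexins of the A and D types. Its level was 10.46 and 10.66 log2 units at 4 weeks, 10.15 and 10.19 at 6 weeks, 9.71 and 9.84 at 8 weeks, 9.59 and 9.61 at 10 weeks, and 9.39 and 9.29 at 12 weeks. Every array of an age lay below all arrays of the age before it, with no overlap at any step. Sema3c was the only one of the 31 members with this order, which 0.0962% of all genes had; the opposite order was found for 0 members and 0.0152% of genes. The fitted change was −1.21 ± 0.09 (SE), or 2.31-fold lower, with an adjusted p of 8e-05 in limma. The mean had covered 64.4% of its whole difference by 8 weeks, and it stood at 9.34 ± 0.07 at 12 weeks, against 9.60 ± 0.02 at 10 weeks (SD, n = 2 each). Because the tissue was measured in bulk, fewer cells that express a gene and less RNA of it per cell cannot be told apart, here or for any gene below.

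Sema6a encodes a transmembrane semaphorin that binds plexins A2 and A4 and is known for guiding mossy fibres in the mouse. The gene lies on chromosome 18 at 47245254 to 47371200 (mm10). It stood at 9.95 and 10.03 at 4 weeks, at 9.69 and 9.69 at 6 weeks, at 9.45 and 9.66 at 8 weeks, at 9.35 and 9.40 at 10 weeks, and at 9.41 and 9.53 at 12 weeks. The 4-week arrays were the highest, both above all 8 later arrays; the 10-week arrays were the lowest, and the ranges of the 8- and 12-week arrays overlapped. The fitted change was −0.54 ± 0.10 (SE; adjusted p = 0.031 in limma), or 1.46-fold lower. The call did not hold without 4 weeks replicate 1 (adjusted p = 0.165), 4 weeks replicate 2 (0.146) or 12 weeks replicate 1 (0.073), nor without 6 weeks replicate 2 (0.052) or either 10-week array (0.066 and 0.072).

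Plxnb3 encodes a plexin that is known as a receptor of Sema5a and is expressed in the oligodendrocyte lineage. It had 8.62 and 8.71 log2 units at 4 weeks, 8.42 and 8.56 at 6 weeks, 8.31 and 8.28 at 8 weeks, 8.33 and 8.34 at 10 weeks, and 8.18 and 8.10 at 12 weeks. Both 12-week arrays were below the 8 others, both 4-week arrays were above them, and the arrays of 8 and 10 weeks lay close together. The fitted change was −0.48 ± 0.07 (SE; adjusted p = 0.0095 in limma), or 1.40-fold lower. Without 4 weeks replicate 1 or replicate 2 the adjusted p was 0.060 and 0.059.

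Plxna3 encodes the plexin that, with Nrp2, receives Sema3f and is known in the mouse for the pruning of mossy fibres. Its values were 9.11 and 9.08 at 4 weeks, 8.94 and 8.84 at 6 weeks, 8.87 and 8.99 at 8 weeks, 8.63 and 8.59 at 10 weeks, and 8.62 and 8.69 at 12 weeks. The 4 arrays of 10 and 12 weeks lay below the 6 younger ones, with no overlap between those 2 sets. On the X chromosome, which carries Plxna3 and Plxnb3, 0.681% of 734 measured genes fell. The fitted change was −0.47 ± 0.08 (SE; adjusted p = 0.021 in limma), or 1.38-fold lower. It did not pass without 4 weeks replicate 1 (adjusted p = 0.131), 4 weeks replicate 2 (0.10) or 12 weeks replicate 1 (0.073).

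**Figure D2:**
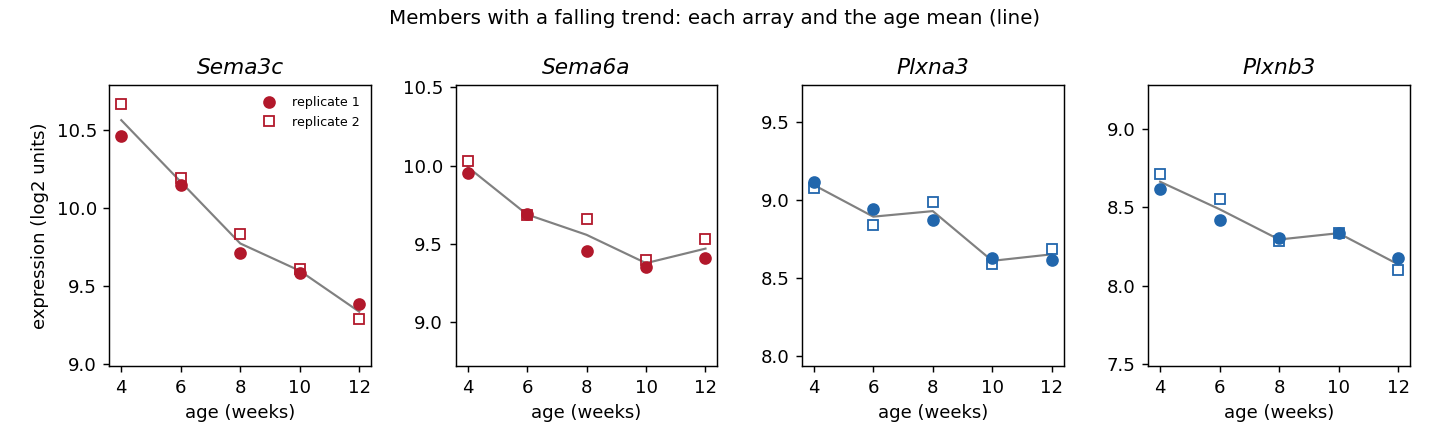
Expression in log2 units (y axis, each panel spanning the same 1.8 units) against age in weeks for the 4 members that fell; filled circles are replicate 1, open squares replicate 2, and the line joins the means of 2 arrays. Sema3c goes down at every age, Sema6a is highest at 4 weeks, and Plxna3 is low on the arrays of 10 and 12 weeks.

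In mm10 (GRCm38) coordinates Sema3c lies on chromosome 5 at 17574816 to 17730268, Plxnb3 on the X chromosome at 73756556 to 73772510 and Plxna3 on the X chromosome at 74328290 to 74344689. Promoter windows from 250 bases before to 50 bases after an annotated start were available from RefSeq (GRCm38.p6) for 26 of the 31 members, 37 windows in all, since some genes have several starts. The windows of Sema3c and of both falling plexin genes are shown, which differ widely in their number of CpG pairs. Sema6a, the other member that fell, had no window. The windows shown are chr5:17574566-17574865, chrX:73756853-73757152 and chrX:74328816-74329115, all on the plus strand and written 5′ to 3′. The Sema3c window spans the gene's outermost annotated start. Those of Plxnb3 and Plxna3 lie wholly inside the gene spans given above, at starts further downstream. Their contents are therefore not those of the outermost start of these plexin genes. Capitals mark matches on either strand to 5 motifs: the GC box GGGCGG, the TATA box TATAAA, the E-box CAGCTG, the E-box CAGATG, and the SOX-type site ACAAAG. No matches overlapped.
Sema3c: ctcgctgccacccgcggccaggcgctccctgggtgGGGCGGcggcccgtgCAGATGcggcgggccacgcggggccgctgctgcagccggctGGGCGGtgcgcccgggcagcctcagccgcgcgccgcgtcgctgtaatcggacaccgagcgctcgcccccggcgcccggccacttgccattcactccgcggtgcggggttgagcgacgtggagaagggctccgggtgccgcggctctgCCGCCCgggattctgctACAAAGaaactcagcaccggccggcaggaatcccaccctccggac
Plxnb3: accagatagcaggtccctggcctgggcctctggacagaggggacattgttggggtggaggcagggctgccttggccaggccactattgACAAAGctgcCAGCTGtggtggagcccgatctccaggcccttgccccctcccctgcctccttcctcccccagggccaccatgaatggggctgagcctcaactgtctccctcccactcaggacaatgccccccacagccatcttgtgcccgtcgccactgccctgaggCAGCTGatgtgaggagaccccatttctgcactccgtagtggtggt
Plxna3: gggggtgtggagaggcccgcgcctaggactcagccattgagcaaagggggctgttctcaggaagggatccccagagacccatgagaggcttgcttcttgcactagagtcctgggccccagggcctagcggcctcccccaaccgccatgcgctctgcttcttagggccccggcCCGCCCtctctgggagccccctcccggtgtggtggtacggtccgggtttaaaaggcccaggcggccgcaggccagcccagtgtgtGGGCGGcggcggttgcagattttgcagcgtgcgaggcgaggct

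The Sema3c window held 42 CpG pairs, the highest number among the members' windows; 97% of 32851 mouse promoter windows held fewer. That of Plxna3 held 18 and that of Plxnb3 held 4, against a median of 7 over all promoters and 15 over the members' windows. Sema3c had 3 GC boxes, an E-box CAGATG 200 bases before the start and an ACAAAG just after it. Plxnb3 had an ACAAAG 162 bases and an E-box CAGCTG 152 bases before the start, another CAGCTG after it and no GC box, while Plxna3 had 2 GC boxes and none of the other motifs. GC boxes were found in 27 of the 37 member windows and in 35.7% of all promoters, TATAAA in 0 and in 13.6%. CAGCTG was found in 6 member windows (16.3% of all promoters), CAGATG in 2 (17.2%) and ACAAAG in 8 (18.7%). A match is only a run of letters and says nothing here about which factor binds.

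Among the 7 secreted ligand genes, 1 fell, Sema3c, and 0 rose. Sema3a, the ligand of Nrp1 with A plexins that collapses growth cones, averaged 7.35 ± 0.23 at 12 weeks, against 7.69 ± 0.10 at 4 weeks (SD, n = 2 each), and its mean was lower at each step. Such stepwise decline of the mean was found for 5 members (Sema3a, Sema3c, Sema4g, Sema6c and Plxnb1) and for 2.23% of all genes, and the opposite course for 0 members and 1.16% of genes. Its change of −0.37 ± 0.10 (SE) missed the threshold (adjusted p = 0.152 in limma). Sema3e, which signals through plexin D1 without a neuropilin, had a change of −0.16 ± 0.12, and Sema3d one of −0.14 ± 0.12. The changes of Sema3b (0.04 ± 0.12), Sema3f (0.05 ± 0.07), the ligand of Nrp2, and Sema3g (0.11 ± 0.07) were positive and did not pass either. Sema3a, Sema3c, Sema3d and Sema3e share a stretch of chromosome 5, from 12383161 to 17730268, and of these neighbours the test called Sema3c. Sema3d had the lowest signal of the ligand probe sets. Its level was 7.50 and 7.66 at 4 weeks, 7.69 and 7.55 at 6 weeks, 7.21 and 7.58 at 8 weeks, 7.41 and 7.35 at 10 weeks, and 7.41 and 7.63 at 12 weeks. The lowest of these arrays was 8 weeks replicate 1. Each of the 31 members was above the 95th percentile of olfactory, vomeronasal and trace amine receptor genes, which served as a measure of dim signal (mean 7.01), on all arrays.

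Of the 13 membrane-bound ligand genes, 1 fell, Sema6a, and 0 rose. Sema4g, a transmembrane semaphorin, came closest to the threshold. It had 8.86 and 9.04 at 4 weeks, 8.72 and 8.61 at 6 weeks, 8.64 and 8.63 at 8 weeks, 8.39 and 8.64 at 10 weeks, and 8.57 and 8.35 at 12 weeks, with the 4-week arrays above all later ones. Its change was −0.45 ± 0.10 (SE; adjusted p = 0.056 in limma). Sema4d, a ligand of plexin B1 that is also made by oligodendrocytes, had a fitted change of −0.32 ± 0.09 (adjusted p = 0.143 in limma). Its 4-week arrays, at 9.98 and 9.99, stood above the 8 later ones, which ran from 9.52 to 9.75. Sema4c, a ligand of plexin B2, had a change of −0.25 ± 0.07 and Sema5b one of −0.26 ± 0.07 (adjusted p = 0.143 and 0.146 in limma). Sema5b lay at 8.97 to 9.04 on the 6 arrays up to 8 weeks and at 8.70 to 8.83 on the 4 older ones, with no overlap.

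Sema6c (−0.20 ± 0.07), Sema6d (−0.19 ± 0.08), a ligand of plexin A1, and Sema6b (−0.05 ± 0.06), a ligand of plexin A4, had negative changes that did not pass. Sema4a (0.01 ± 0.10), Sema4b (0.04 ± 0.08), Sema4f (0.06 ± 0.07) and Sema7a (0.08 ± 0.08) had small positive ones; Sema7a is the ligand anchored by a lipid in the membrane, which acts through integrins and plexin C1. Sema5a, which is known to restrain synapse formation on mouse granule cells, had the highest signal of the ligand probe sets. It stood at 12.47 and 12.59 at 4 weeks, 12.49 and 12.55 at 6 weeks, 12.5 and 12.61 at 8 weeks, 12.44 and 12.49 at 10 weeks, and 12.53 and 12.65 at 12 weeks. Both 10-week arrays lay below all arrays of 6, 8 and 12 weeks, every other pair of ages overlapped, and the 95% interval of the Sema5a change ran from −0.13 to 0.18. Probe sets differ in how brightly they report, so signals of different genes are not ranked beyond this.

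**Figure D3:**
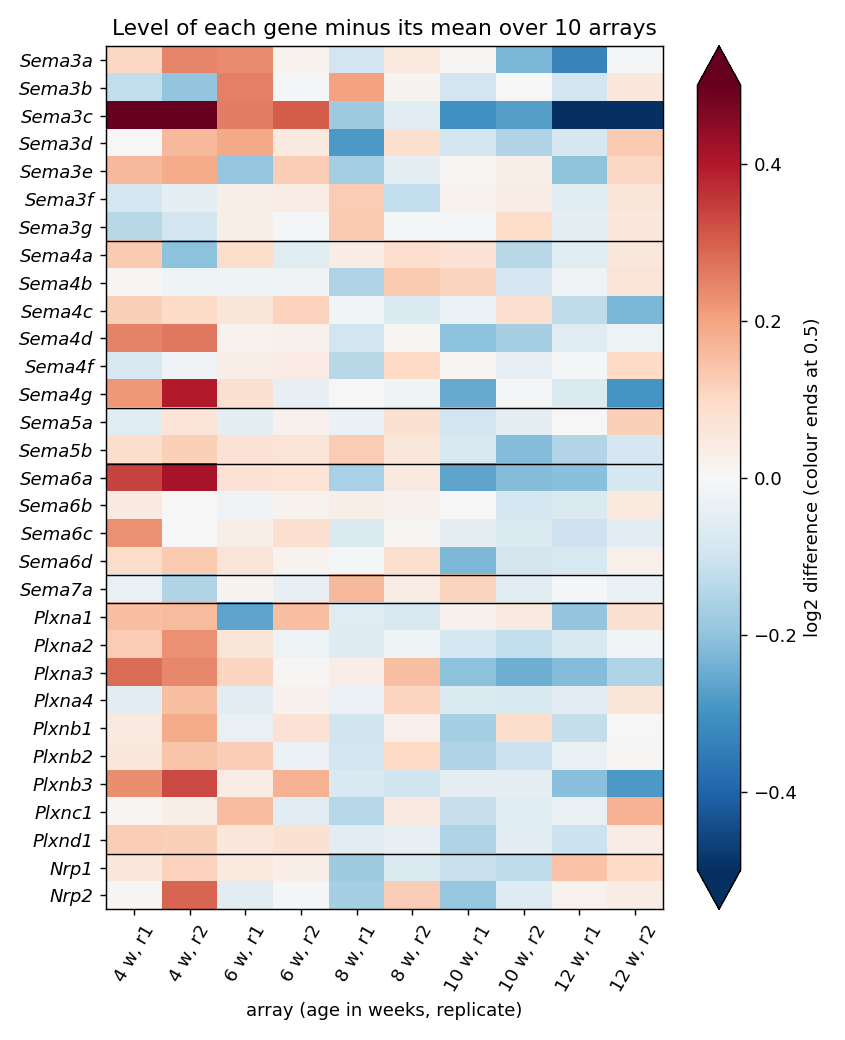
Log2 level of each of the 31 genes (rows, separated by lines into Sema3, Sema4, Sema5, Sema6, Sema7a, plexins and neuropilins) on each of the 10 arrays (columns, by age and replicate) minus that gene's mean over the arrays; red is above and blue below the mean, and colours end at 0.5 either way. Sema3c passes from red to blue with age, and Sema4g, Sema6a, Plxna3 and Plxnb3 are red at 4 weeks.

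All 11 receptor genes had negative fitted changes, against 48.8% of all genes, and 2 of them passed, Plxna3 and Plxnb3. Of the others, Plxnc1 was positive with quantile normalization (0.017) and median centring (0.0032), and also without 6 weeks replicate 1 or 10 weeks replicate 1. Without 4 weeks replicate 2, Plxna4 (0.0076) and Nrp1 (0.021) were positive, and without both 4-week arrays Plxna1, Plxnc1, Nrp1 and Nrp2 were. Plxna2, a receptor of Sema6a and Sema5a in mouse granule cells, had a change of −0.23 ± 0.07 (SE; adjusted p = 0.186 in limma). Its mean was 11.27 ± 0.05 at 12 weeks, against 11.50 ± 0.07 at 4 weeks (SD, n = 2 each). Plxna1 had −0.14 ± 0.12. Plxna4, a receptor of Sema6a and Sema6b, had −0.06 ± 0.08 and the highest signal of the receptor probe sets. Its arrays stood at 12.65 and 12.85 at 4 weeks, 12.65 and 12.73 at 6 weeks, 12.68 and 12.81 at 8 weeks, 12.63 and 12.62 at 10 weeks, and 12.65 and 12.76 at 12 weeks. Both 10-week arrays were below all others, which overlapped from age to age. The lowest signal among receptor probe sets was that of Plxnb3, given above.

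Plxnb1, the Sema4d receptor, had a change of −0.16 ± 0.08 and Plxnb2, which is known from migrating and dividing neuronal precursors, one of −0.16 ± 0.08; neither passed. Plxnd1, the Sema3e receptor, had −0.19 ± 0.07 (adjusted p = 0.251 in limma) and Plxnc1 −0.02 ± 0.09. For the 27 members that were not called, the 95% intervals of the change reached down to −0.66 (Sema4g) and up to 0.30 (Sema3b). A missed threshold therefore leaves room for changes of that size.

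Nrp1 and Nrp2, the co-receptors of class 3 semaphorins, were not called, with changes of −0.04 ± 0.10 and −0.14 ± 0.11. Nrp1 had 11.28 and 11.34 log2 units at 4 weeks, 11.27 and 11.26 at 6 weeks, 11.05 and 11.16 at 8 weeks, 11.11 and 11.10 at 10 weeks, and 11.37 and 11.33 at 12 weeks. The arrays of 8 and 10 weeks thus lay below all others, a course that a straight line cannot describe. In the moderated F-test over any differences between ages Nrp1 had an unadjusted p of 0.012 and an adjusted p of 0.460 in limma. Without the 12-week arrays its fitted change was −0.31 (adjusted p = 0.221 in limma). That value is a slope fitted from 4 to 10 weeks and scaled to 8 weeks. The measured means were 11.31 at 4 weeks and 11.11 at 10 weeks. Nrp2 had its highest level, 10.78, on 4 weeks replicate 2 and between 10.30 and 10.61 on the others.

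The F-test called 1 of 31 members, Sema3c (adjusted p = 0.0043 in limma), where the background was 0.167% of genes. At an unadjusted p under 0.05 it had 10 members and 8.46% of genes. Comparing 12 with 4 weeks, the ends of the same series, called the same 4 members as the trend, all lower, against a background of 0.39% of genes lower and 0.516% in either direction. At an unadjusted p under 0.05 there were 11 members, all lower, and 9.57% of genes. Sema3c was at 9.34 ± 0.07 at 12 weeks and 10.56 ± 0.14 at 4 weeks (SD, n = 2 each), a difference of −1.23 ± 0.09 (SE; adjusted p = 0.00065 in limma). The differences were −0.53 for Plxnb3 (adjusted p = 0.019), −0.52 for Sema6a (0.036) and −0.44 for Plxna3 (0.037). Plxna3 was not called with the replicate number as a block, and neither Plxna3 nor Sema6a with the choroid plexus list as a covariate. With 1 array of 4, 10 or 12 weeks left out this comparison called 1 member, Sema3c, and with 1 array of 6 weeks left out 2, Sema3c and Plxnb3. Where the array left out is of 4 or 12 weeks, that age has 1 array, which is assumed to vary like the arrays of the other ages. Both 12-week arrays lay below both 4-week arrays for 17 of 31 members, against 22.2% of all genes, and above them for 4, against 21.6%. None of the single steps between neighbouring ages called a member or any other gene (background 0% of genes). At an unadjusted p under 0.05 in limma there were 8 members from 4 to 6 weeks, 3 from 6 to 8 weeks, 3 from 8 to 10 weeks and 4 from 10 to 12 weeks; over all genes these shares were 4.13%, 6.25%, 4.79% and 5.59%. Of the 8, Sema3b had a positive step and the other 7 a negative one. The median step of the members was −0.05, −0.04, −0.07 and 0.03 in that order.

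Partners and effectors of semaphorin receptors were counted from 2 lists. Over all genes 0.673% fell and 0.147% rose in the trend, with a median change of 0.00. Of 15 partner genes 1 fell and 0 rose, with a median change of −0.08: L1cam, an adhesion molecule that forms a receptor complex with Nrp1, had a change of −0.43 ± 0.06 (SE; adjusted p = 0.0063 in limma, and 0.057 without 4 weeks replicate 1). Its mean was 9.84 ± 0.03 at 12 weeks and 10.28 ± 0.05 at 4 weeks (SD, n = 2 each). The integrin gene Itgb1, a Sema7a receptor subunit (−0.33 ± 0.11), and Chl1, an adhesion molecule related to L1cam (−0.19 ± 0.07), were next in size and did not pass. Of 26 measured effector genes 3 fell and 0 rose, with a median of −0.06. All 3 encode collapsin response mediator proteins, a family with some members known to relay semaphorin signals to microtubules. They are Dpysl3 (−1.08 ± 0.11), Dpysl5 (−0.91 ± 0.06) and Dpysl4 (−0.49 ± 0.09, adjusted p = 0.034 in limma). The other members of this family on the list, Crmp1 (−0.18; adjusted p = 0.187) and Dpysl2 (−0.05; 0.768), did not pass in limma. The call of Dpysl4 did not hold with either array of 4, 10 or 12 weeks left out, where its adjusted p lay between 0.054 and 0.159 in limma. Neither was Dpysl4 called without 6 weeks replicate 2 (0.062) or with median centring (0.05007). The small GTPase genes Rac1 (−0.01 ± 0.06) and Rhoa (−0.06 ± 0.05), on which plexin signals converge, were not called.

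Markers of 3 cell populations fell over the same ages, at which 0.673% of all genes fell and 0.147% rose. Of 8 neuroblast and immature neuron markers 5 fell, and the mean of the list was 9.84 and 9.91 at 4 weeks, 9.47 and 9.41 at 6 weeks, 9.13 and 9.27 at 8 weeks, 9.003 and 8.987 at 10 weeks, and 8.91 and 8.91 at 12 weeks. Of 7 genes on the oligodendrocyte precursor list 5 fell: Olig1, Olig2, Gpr17, Enpp6 and Bmp4. The other genes of that list, Pdgfra (−0.16, adjusted p = 0.497) and Cspg4 (−0.14, 0.457), did not pass in limma. The list means were 8.74 and 8.80 at 12 weeks, against 9.37 and 9.35 at 4 weeks. Of 7 measured markers of myelinating oligodendrocytes 5 fell, with means of 10.40 and 10.45 at 12 weeks, against 11.02 and 10.98 at 4 weeks. The part of these populations in the changes of Sema3c, Sema6a, Plxna3 and Plxnb3 was not tested. Of 6 granule cell markers 1 fell, Tdo2, and of 4 mossy cell markers 1 fell, Gal. In the lists of interneurons, pyramidal cells, astrocytes, microglia, choroid plexus, meninges, mural cells and endothelium, 0 genes passed in either direction. The endothelial list, whose cells are known to carry Nrp1 and Plxnd1, had means of 8.63 and 8.69 at 4 weeks. Its means were 8.89 and 8.84 at 6 weeks, 8.79 and 8.85 at 8 weeks, and 8.65 and 8.77 at 10 weeks. At 12 weeks they were 8.74 and 9.06, and the lower of these lay below all arrays of 6 and 8 weeks.

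**Figure D4:**
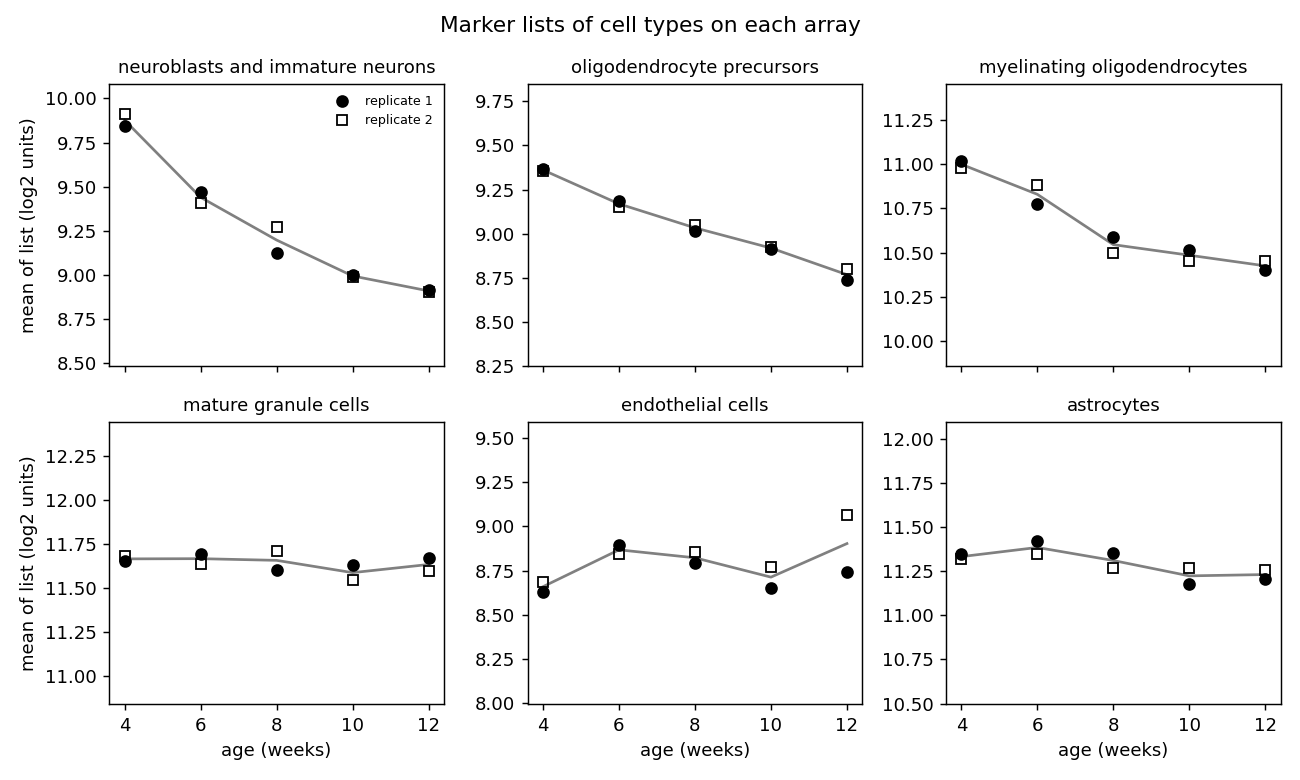
Mean log2 level of 6 marker lists (panels, each spanning the same 1.6 units) against age in weeks; filled circles are replicate 1, open squares replicate 2, and lines join the means of 2 arrays. The lists of neuroblasts, oligodendrocyte precursors and myelinating oligodendrocytes go down with age, and that of mature granule cells stays between 11.55 and 11.71.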

How the data were processed

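The deposited table holds values for 25254 probe sets on 10 arrays, treated here as log2 expression since they are continuous and similar in range on all arrays; the log base and the authors' background correction, summarization and normalization software are not given in the sources used here. RNA was, per the labels' protocols, biotinylated with a terminal labelling kit, and per the submitters' processing notes the build was mm10. Probe sets with 1 annotated gene (21496) were kept, and the probe set of highest mean was used for each of 19752 genes, with no filter on dim genes. Coordinates are those of RefSeq for GRCm38.p6. limma 3.58.1 in R 4.3.3 was fitted on all genes, with age as a number (8 residual degrees of freedom) or as a factor (5), after the script was tested on simulated data. Tests were two-sided.

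Arrays were grouped by the age in their titles. Members, lists and tests were chosen with earlier results of these data known. Every member is named. Values on all arrays are given for the called members, for those of highest and lowest signal and, chosen after their values were seen, for Sema4g and Nrp1. Of the pathway lists the called genes and the 3 of largest change are named, and Crmp1, Dpysl2, Rac1 and Rhoa were added after their values were seen. The deviations of same-numbered arrays correlated across genes between −0.335 and 0.16 over 10 pairs of ages (median 0.03), over 0.1 in 3 of them, so the numbers were not taken to pair the arrays and the block is an alternative. Alternatives were array weights, the block, median centring or quantile normalization, a test without the dimmest 30% of genes, robust or trended variances, the mean over probe sets, a choroid plexus covariate, log2 of age and leaving out arrays.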

Additional observations from a re-analysis of the deposited data

How the results depend on the processing

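Sema3c passed the trend in 23 of 23 alternatives, with changes between −1.31 (without the 12-week arrays) and −1.07 (without the 4-week arrays). Fits without all arrays of 4 or of 12 weeks cover fewer weeks. Their slopes are scaled to 8 weeks here and below. Plxnb3 passed in 19, Plxna3 in 18 and Sema6a in 16, with negative changes in each. The number of members called in the trend ran from 1 to 4 when each array was left out in turn, and it was 1 without the 4-week arrays, Sema3c. It was 4 with the replicate block. In the F-test the count was 4 with the dimmest 30% left out, 5 with trended variances, 3 with array weights, and 1 or 2 without 1 array. For 12 against 4 weeks it was 3 with the replicate block, which lost Plxna3, 2 with the choroid plexus covariate, which lost Plxna3 and Sema6a, and between 1 and 4 without 1 array. From 6 to 8 weeks it was 0 or 1 without 1 array, where Sema3c was called without 8 weeks replicate 2, a setting that called 1079 genes and leaves 8 weeks with 1 array, assumed to vary like the other ages. Sema4g passed with the dimmest genes left out (adjusted p = 0.027), trended variances (0.022), array weights (0.039) and log2 of age (0.032), Sema5b with array weights (0.048) and Sema4d without the 12-week arrays (0.037). Without the 12-week arrays Plxna3 (0.103) and Plxnb3 (0.149) were not called. The cause of these shifts was not tested; settings without arrays rest on fewer arrays. Over all genes the trend called 162, and 350 with trended variances, 337 without the dimmest 30%, 417 with array weights, 35 and 54 without 4 weeks replicate 1 and 2, 91 and 104 without 12 weeks replicate 1 and 2, 102 and 109 without 10 weeks replicate 2 and 1, 279 without 8 weeks replicate 1, 51 without the 12-week arrays and 7 without the 4-week arrays. The F-test called 33 genes, and 13 with the replicate block, 69 without the dimmest 30%, 151 with trended variances, 62 with array weights, 17 with the choroid plexus covariate and between 5 and 50 without 1 array. For 12 against 4 weeks these counts were 102, and 66, 210, 303, 250, 61 and between 13 and 188. The block changed no other count of members.

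Signs turned only for members that were not called. Without the 4-week arrays the change was −0.24 for Sema3b, 0.034 for Sema3e, −0.028 for Sema3f, −0.018 for Sema3g, −0.054 for Sema4a, −0.035 for Sema7a, 0.04 for Plxna1, 0.0083 for Plxnc1, 0.10 for Nrp1 and 0.026 for Nrp2. Sema4a had −0.010 with array weights, Sema5a −0.073 without the 12-week arrays, and Plxnc1 0.017 with quantile normalization, 0.0032 with median centring and 0.015 without both arrays that stood apart. With 1 array left out in turn, the change ran from −0.059 to 0.11 for Sema3b, −0.10 to 0.088 for Sema4a, −0.036 to 0.068 for Sema5a, −0.11 to 0.0076 for Plxna4, −0.12 to 0.018 for Plxnc1 and −0.13 to 0.021 for Nrp1. Both scalings moved the median change of all genes by less than 0.1.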

Other observations

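Both falling plexin genes lie on the X chromosome, 588 kb from the start of Plxnb3 to the end of Plxna3, and L1cam lies between them at 73853778 to 73880838. In this stretch 23 genes were measured, of which these 3 fell, 20 were not called and 18 had a negative change, with a median of −0.04. Over all measured X chromosome genes 48.9% had a negative change. On the whole X chromosome 5 of 734 measured genes fell (0.681%), the other two being Dcx, doublecortin of immature neurons, and Glra2, a glycine receptor subunit (−0.67 ± 0.11, SE). The stretch was looked at after the values of its genes were seen, and no test was made of it. Fam50a, also in the stretch, had a change of −0.29 (adjusted p = 0.079 in limma), and Flna, the actin crosslinker filamin A, one of −0.26 (0.405). The largest positive changes there were those of Opn1mw (0.19, adjusted p = 0.37 in limma), Dnase1l1 (0.17, 0.645) and Avpr2 (0.13, 0.776).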
